A study of Arabidopsis thaliana with 27 samples.

Results

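Mature egg cells and 32-cell embryos of Arabidopsis thaliana, accession Col, were compared to obtain the net change in gene expression between the female gamete and an embryo that has completed its early divisions. The comparison used 6 of the 27 RNA sequencing libraries of the series, chosen by their labelled stage. They were the 3 libraries labelled 32-cell embryo (32C) and the 3 labelled mature egg cell (EC), and no zygote stage entered the comparison itself. Both groups came from unmodified Col plants grown in a greenhouse under long days, and the labels give no treatment, transgene or batch. The series also holds zygotes, 1-cell embryos and zygotes of crosses with another accession. The labels do not say how many cells were pooled in a library or whether the replicates came from separate plants. The p-values therefore measure only the spread between libraries of a stage, which may be technical. For the gene tests this spread was taken over 15 Col libraries, the Col zygotes and 1-cell embryos among them.

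The egg cell is a differentiated, non-dividing gamete that lies beside the synergids and the central cell in the embryo sac. Fusion with a sperm makes the zygote, which elongates and divides unequally into an apical cell, the founder of the embryo proper, and a basal cell, the founder of the suspensor. A kinase cascade named after YODA, WOX homeobox factors and WRKY2 act in this first asymmetry, and later divisions set apart the protoderm, the vascular and ground tissue precursors and the founder cell of the root pole, with auxin transport and response as a main cue. Each 32C library therefore averages several cell types, whereas EC is a single cell type. In such bulk samples fewer cells of a type and less RNA per cell cannot be told apart.

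Levels are given in FPKM, which divides the fragments of a gene by its length and by library size, so that levels of different genes can be compared. A locus with no entry in a library was set to 0 and is written as listed at 0. The 32C libraries listed 18410, 19018 and 18501 genes, against 16423, 14902 and 16118 genes in the EC libraries. Genes with FPKM of at least 1 numbered 15829.7 ± 128.5 in 32C and 14287.7 ± 445.0 in EC (SD, n = 3 each), a difference of 1542 genes. With 3 libraries a side the exact permutation test (two-sided) cannot go below 0.1, and it gave p = 0.1. The FPKM sums, 870554 ± 4602 in 32C and 844115 ± 56213 in EC, overlapped (exact permutation p = 0.4). Steps in the low values put 1 fragment per kb at 0.0511 to 0.0571 FPKM in the 32C libraries and at 0.0579 and 0.0661 FPKM in EC replicates 1 and 3, and gave no depth for EC replicate 2, so no counting intervals are given. The embryo markers WOX2, ATML1, PDF2, PLT2 and BBM were higher in 32C and the 10 egg cell genes were higher in EC, whereas LEC1 was present in both groups.

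Of 18481 genes tested, 5136 (27.8%) were higher and 2861 (15.5%) lower in 32C than in EC, so that 43.3% changed. A gene was tested if it reached 1 FPKM in at least 3 of the 15 Col libraries. A gene listed at 0 in EC that passed through the 32C libraries could only be called higher or not called, and the reverse held for EC. The counts of lists and families below include such genes, and are to be read beside 27.8% higher and 15.5% lower. Calls required an adjusted p below 0.05 (limma on log2(FPKM + 1), Benjamini-Hochberg over all tested genes) together with a log2 difference, 32C minus EC, of at least 1 in size. Log2 differences below are on the log2(FPKM + 1) scale with their SE, which understates changes of weakly expressed genes and gives no fold for a gene listed at 0 in a whole group. The median difference of all tested genes was 0.23 and the median SE 0.335. Among the called genes 3092 were higher and 1391 lower by at least 2 units, and 532 higher and 240 lower by at least 5. The libraries of the groups did not overlap in 7560 genes with every 32C value higher (40.9%) and in 4730 genes with every 32C value lower (25.6%). The split of the calls depended on the scaling: 64.2% were higher as deposited and 47.9% (3958 higher, 4297 lower) after quantile normalization, which moved the median of all genes by -0.32. Leaving the 10 highest genes of each library out of the sum moved it by -0.17, and genes below are to be read relative to that centre.

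**Figure D1:**
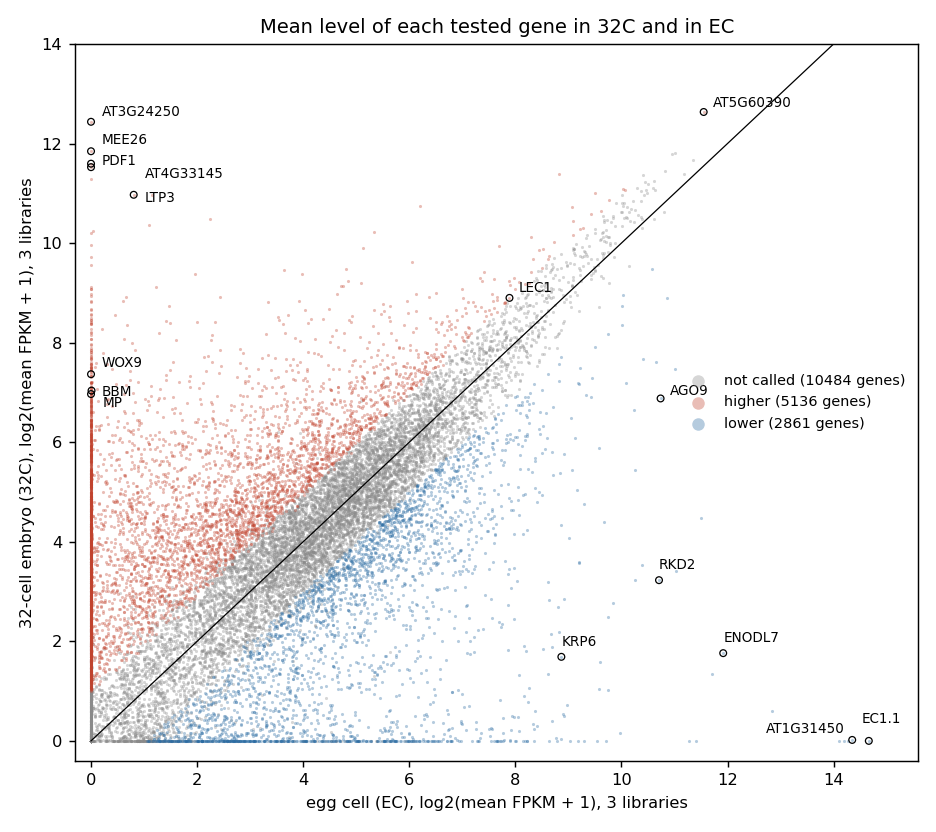
Mean level of each of the 18481 tested genes, 32C on the vertical axis and EC on the horizontal axis, both as log2(mean FPKM + 1) over 3 libraries, with genes called higher, lower or not called in 32C coloured and the diagonal drawn. The genes EC1.1 and AT1G31450 lie at the lower right edge, PDF1 and AT3G24250 at the upper left edge, and LEC1 and AT5G60390 near the diagonal.

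Most of the transcripts that dominated the egg cell were nearly gone in the embryo. All 10 egg cell genes (5 EC1 genes, a pair of aspartyl proteases, RKD1, RKD2 and AGO9) fell, with a median difference of -13.06. Their summed share of FPKM was 0.0130% to 0.0159% in the 32C libraries, against 12.8%, 16.5% and 12.1% in the EC libraries. Most of the share left in 32C was AGO9, which kept a level in each 32C library (values below). EC1.1 (AT1G76750), the most abundant transcript of the egg cell and a member of the secreted cysteine-rich proteins released when sperm arrive, had 0 in each 32C library, against 21833, 32564 and 23478 FPKM in EC (difference -14.64 ± 0.32, adjusted p = 2.08e-13). EC1.2, EC1.3, EC1.4 and EC1.5, of the same family, differed by -13.96, -14.14, -12.15 and -10.35. In EC replicate 2 each of these 5 was above both other EC libraries, and the 32C values did not exceed 2.08 FPKM. The EC1 genes resemble each other and may share reads.

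A pair of loci annotated as aspartyl proteases followed EC1.1 in mean EC level. EC1.1 and the pair had at least 17183 FPKM in each EC library, and EC1.1 was the highest gene in each. In EC replicate 2, EC1.2 and EC1.3 were above the pair, with 28543 and 26346 FPKM. AT1G31450 had 0, 0 and 0.04 FPKM in 32C, against 21686, 20174 and 20827 FPKM in EC (-14.33 ± 0.18, adjusted p = 3.44e-16). AT2G35615 had 0 in each 32C library, against 21147, 21145 and 17183 FPKM in EC (-14.27 ± 0.19, adjusted p = 3.44e-16). Aspartyl proteases as a family took 0.118% to 0.120% of FPKM in 32C, against 4.59% to 5.33% in EC, although 20 of its 42 tested genes (70 annotated) were higher in 32C, 6 lower and 16 not called. Other members were present in the embryo. AT1G62290, a saposin-like aspartyl protease, had 294, 257 and 249 FPKM in 32C, against 0 in each EC library (8.06 ± 0.49, adjusted p = 4.14e-09). AT1G01300 and AT1G25510, also listed at 0 in EC, rose by 7.55 and 6.61.

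The egg cell's regulators fell with its secreted proteins. RKD genes encode RWP-RK transcription factors, which promote egg cell and early embryo identity, and all 5 fell. RKD2 had 5.93, 13.5 and 5.68 FPKM in 32C, against 1695, 1802 and 1519.8 FPKM in EC (-7.57 ± 0.69, adjusted p = 2.87e-07) and RKD1 5.55, 0.82 and 1.15 FPKM in 32C, against 331, 355 and 189.9 FPKM in EC (-6.58 ± 0.51, adjusted p = 4.77e-08). RKD4 (AT5G53040), which is needed for the first zygotic divisions, had 0 in each 32C library, against 109, 120.3 and 97.4 FPKM in EC (-6.78 ± 0.24, adjusted p = 1.67e-11). RKD3 (-2.11) and RKD5 (-1.74) fell less and kept 56.8 to 85.5 FPKM and 21.2 to 30.1 FPKM in 32C. MYB64 (AT5G11050) and MYB119, MYB factors that act in female gametophyte development, fell as well. MYB64 had 0, 0.08 and 0 FPKM in 32C, against 498, 448 and 442 FPKM in EC (-8.82 ± 0.40, adjusted p = 1.71e-10). MYB119 had 0 in each 32C library, against 88.4, 70.0 and 93.4 FPKM in EC (-6.4 ± 0.38, adjusted p = 2.91e-09).

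The remaining falls among the 12 of largest size were in genes of differing annotation. The subtilase SBT4.13 (AT5G59120) had 0 in each 32C library, against 3094, 2795 and 2294 FPKM in EC (-11.40 ± 0.22, adjusted p = 3.15e-14). The early nodulin-like protein ENODL7 had 3.32, 1.64 and 2.22 FPKM in 32C, against 3576, 4993 and 3044 FPKM in EC (-10.15 ± 0.29, adjusted p = 2.98e-12). AT1G12080, annotated as a vacuolar calcium-binding protein, differed by -11.18, the DUF1218 gene AT1G52910 by -9.82 and the calcium-dependent lipid-binding gene SYTB by -9.54. In each of these 5 genes the EC values were at least 661 FPKM and the 32C values at most 3.32 FPKM. AT1G07750, a cupin and 1 of the 10 highest genes of the egg cell, had 24.2, 21.4 and 18.6 FPKM in 32C, against 3145, 3081 and 2518 FPKM in EC (-7.02 ± 1.02, adjusted p = 3.47e-05).

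The 12 largest rises were in genes that had at most 2.67 FPKM in any EC library. AT3G24250, a glycine-rich protein, had 5103, 5523 and 6006 FPKM in 32C, against 0 in each EC library (12.43 ± 0.32, adjusted p = 7.53e-13). MEE26 (AT2G34870), a hydroxyproline-rich glycoprotein, had 4207, 3479.9 and 3348 FPKM in 32C, against 0 in each EC library (11.84 ± 0.59, adjusted p = 4.79e-10). PDF1 (AT2G42840), a protoderm-specific extracellular protein used as an epidermal marker, had 2829.6, 3363 and 3088 FPKM in 32C, against 0 in each EC library (11.59 ± 0.24, adjusted p = 9.99e-14). None of the 3 was listed above 0 in an EC library. AT4G33145, of unknown function, rose by 11.52 and the BTB/POZ domain gene AT4G04090 by 11.28. The lipid transfer protein LTP3 had 1729.8, 2348 and 1939 FPKM in 32C, against 0.62, 0 and 1.62 FPKM in EC (10.26 ± 0.49, adjusted p = 3.2e-10). The sugar transporter SWEET12 (AT5G23660), which moves sucrose across the plasma membrane, had 932, 953 and 1091 FPKM in 32C, against 0 in each EC library (9.95 ± 0.89, adjusted p = 2.29e-07). The other members of the 12 were MLP28 (10.19), the GDSL lipase AT1G71691 (10.17), the pectin methylesterase inhibitor AT1G09370 (9.98), the thaumatin-like AT2G28790 (9.70) and the cysteine-rich peptide gene LCR68 (9.56).

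The most abundant transcripts were spread over more genes in the embryo. The 10 highest genes took 4.32 ± 0.19% of FPKM in 32C and 14.6 ± 2.48% in EC (SD, n = 3 each, exact permutation p = 0.1), and the single highest gene took 0.730% in 32C and 3.06% in EC. The highest gene of 32C was AT5G60390, a translation elongation factor, with 5717, 6148 and 7199 FPKM in 32C, against 3281, 2851 and 2864 FPKM in EC (1.08 ± 0.17, adjusted p = 9.66e-05). Its call was lost under 2 of the 4 other scalings (0.87 and 0.99) and without 32C replicate 3 (0.99), and it was the 1 gene among the 10 highest of both groups. The list of 32C further held AT3G24250, MEE26, PDF1, AT4G33145, the ADP/ATP carrier AAC1 (0.20, not called) and 4 ribosomal proteins, of which AT5G20290 differed by 0.81 and P40 by 0.33 (neither called). The 10 highest genes of EC took 0.661% to 0.834% in 32C, against 12.7% to 17.3% in EC. The 10 highest genes of 32C took 4.13% to 4.53% in 32C, against 1.57% to 1.73% in EC.

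Presence at one stage alone was more common for the embryo. At least 5 FPKM in every 32C library and under 1 FPKM in every EC library was found for 1174 genes, 943 of them listed at 0 in all EC libraries. The reverse held for 398 genes, 187 of them listed at 0 in all 32C libraries. The genes on in 32C alone included 14 embryo patterning regulators, 12 auxin genes, 5 genes of mitosis and cytokinesis and 2 of DNA replication, and those on in EC alone included 5 egg cell genes. Of the families, cytochrome P450 genes numbered 17 on in 32C alone and 5 on in EC alone, leaning as all genes did (1174 and 398). F-box genes numbered 7 and 18.

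**Figure D2:**
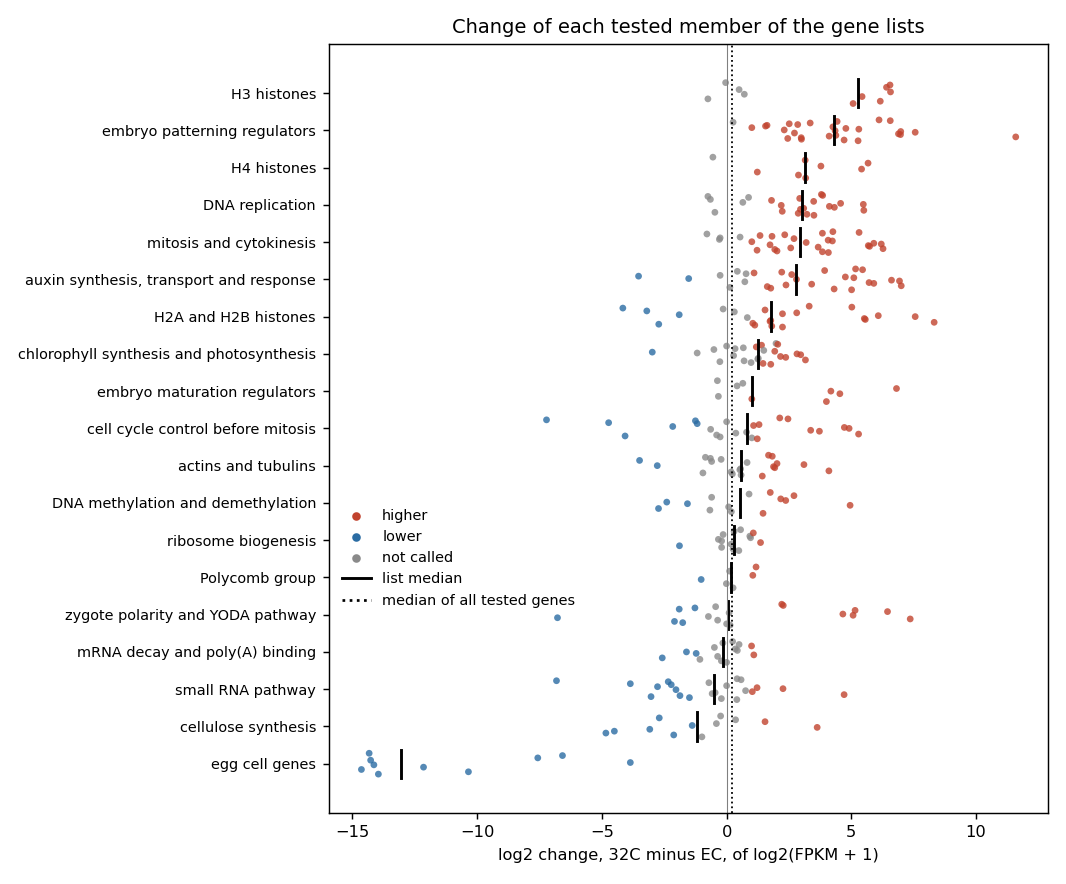
Log2 difference (32C minus EC, log2(FPKM + 1) scale) of each tested member of the 19 gene lists, 1 point per gene, coloured by call, with the list median as a bar and the median of all tested genes as a dotted line. Medians run from -13.06 for egg cell genes to 4.31 for embryo patterning regulators and 5.25 for H3 histones.

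Regulators of zygote polarity split between the stages, with 7 of 18 members higher (38.9%), 5 lower (27.8%) and 6 not called (median 0.05). Of all tested genes 27.8% were higher and 15.5% lower. WOX9, which acts in the basal lineage and is needed for embryo growth, had 151, 152 and 189 FPKM in 32C, against 0 in each EC library (7.36 ± 0.48, adjusted p = 8.25e-09). The apical lineage gene WOX2 had 82.8, 86.1 and 90.9 FPKM in 32C, against 0 in each EC library (6.45 ± 0.27, adjusted p = 9.46e-11). Their relative WOX8 (AT5G45980) had 151, 116 and 115 FPKM in 32C, against 165, 135 and 226 FPKM in EC and was not called (-0.44 ± 0.28, adjusted p = 0.198). The values of WOX8 overlapped between the groups, whereas WOX9 and WOX2 were listed at 0 in the egg cell. WRKY2, known to activate WOX8 in the zygote, fell (8.52, 8.68 and 11.97 FPKM in 32C, against 33.8, 26.9 and 46.6 FPKM in EC, -1.76 ± 0.26, adjusted p = 3.61e-05). The homeodomain genes HDG11 (0.14) and HDG12 (-0.36), which act with WRKY2, were not called. Over the WOX family, 7 of 8 tested members (15 annotated) were higher and none lower; PRS, WOX11 and WOX13 rose by 3.73, 3.28 and 2.15.

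Within the receptor and kinase steps of the same pathway, close relatives moved in opposite directions. ER (AT2G26330), the receptor kinase ERECTA, had 13.6, 15.64 and 18.4 FPKM in 32C, against 79.9, 70.7 and 62.0 FPKM in EC (-2.09 ± 0.26, adjusted p = 7.36e-06). Its paralogues ERL1 and ERL2 rose: ERL1 had 54.4, 62.3 and 66.6 FPKM in 32C, against 0.72, 0 and 2.67 FPKM in EC (5.07 ± 0.45, adjusted p = 2.31e-07) and ERL2 61.9, 67.2 and 80.5 FPKM in 32C, against 0.92, 0 and 3.04 FPKM in EC (5.15 ± 0.42, adjusted p = 8.19e-08). At the MAP kinase kinase step MKK5 had 21.1, 26.0 and 25.9 FPKM in 32C, against 0 in each EC library (4.66 ± 0.30, adjusted p = 6.42e-09), while MKK4 had 26.6, 34.0 and 47.5 FPKM in 32C, against 89.4, 81.7 and 87.6 FPKM in EC (-1.27 ± 0.25, adjusted p = 0.000578). At the MAP kinase step MPK6 had 49.0, 57.3 and 51.0 FPKM in 32C, against 14.01, 14.1 and 5.81 FPKM in EC (2.21 ± 0.34, adjusted p = 7.06e-05), while MPK3 had 20.9, 40.1 and 75.2 FPKM in 32C, against 165, 148 and 144 FPKM in EC (-1.90 ± 0.37, adjusted p = 0.000483). In these 3 gene sets ER, MKK4 and MPK3 were the higher member in EC and ERL1, ERL2, MKK5 and MPK6 did not exceed 14.1 FPKM there. BSK1, a receptor-like cytoplasmic kinase upstream of YODA, rose (2.27 ± 0.24), YDA itself had 14.9, 19.2 and 22.4 FPKM in 32C, against 30.4, 20.6 and 49.8 FPKM in EC and was not called (-0.73), and SSP, a relative of BSK1 carried into the zygote by sperm, was listed at 0 in all 6 libraries.

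Embryo patterning regulators were nearly all higher in the embryo. Of 32 members, 28 passed the filter of FPKM of at least 1 in 3 of the 15 Col libraries. Of these, 27 were higher (96.4%, against 27.8% of all tested genes), none lower and DRN was not called. The median was 4.31, against 0.23 over all tested genes. Members listed at 0 in EC could not be called lower. STM and TMO7 were listed at 0 in all 6 libraries, and DRNL and CUC1 had 0.66, 5.88 and 1.05 FPKM and 0.56, 1.31 and 1.56 FPKM in 32C, against 0 in each EC library. For the protoderm, the homeodomain genes PDF2 and ATML1, which specify epidermal fate, rose. PDF2 had 101, 115 and 139 FPKM in 32C, against 0 in each EC library (6.89 ± 0.47, adjusted p = 1.24e-08). ATML1 had 81.5, 80.5 and 88.8 FPKM in 32C, against 3.0, 1.95 and 4.07 FPKM in EC (4.43 ± 0.28, adjusted p = 5.61e-09), so that a low level of ATML1 was listed in each egg cell library. FDH (AT2G26250), an epidermal fatty acid elongation enzyme, had 160.0, 191 and 216 FPKM in 32C, against 0 in each EC library (7.56 ± 0.44, adjusted p = 2.17e-09). The receptor kinase ACR4 rose by 2.31.

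Factors of the root pole and the basal part of the embryo were high in 32C. BBM (AT5G17430), an AP2-type factor that promotes embryo identity, had 122, 121 and 129 FPKM in 32C, against 0 in each EC library (6.97 ± 0.29, adjusted p = 6.39e-11), and its relatives PLT1, PLT2 and PLT3, which pattern the root stem cell niche, rose by 6.56, 5.30 and 4.26 and were listed at 0 in EC. HAN (AT3G50870), a GATA factor that positions the boundary between proembryo and suspensor, had 147, 119 and 112 FPKM in 32C, against 0 in each EC library (6.98 ± 0.44, adjusted p = 5.55e-09). The zinc finger gene NTT, needed for the founder cell of the root pole, rose by 4.78 and the quiescent centre gene WOX5 by 4.11. The vascular regulators TMO5 (5.27) and LHW (1.56) rose, and LHW had 5.46 to 16.5 FPKM in EC and was not called without EC replicate 3 (1.08). SHR and SCR, the ground tissue regulators, rose by 4.38 and 3.35.

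Several apical and central genes rose as well. PHB (AT2G34710), a class III homeodomain-leucine zipper factor of the apical and central domain, had 60.2, 64.7 and 81.2 FPKM in 32C, against 0 in each EC library (6.11 ± 0.31, adjusted p = 5.89e-10). REV, CNA, PHV and ATHB8 of the same class rose by 2.99, 2.51, 2.45 and 1.62, of which ATHB8 was not called after quantile normalization (0.41). WUS, the organiser of the shoot meristem, had 7.29, 7.38 and 4.36 FPKM in 32C, against 0 in each EC library (2.85 ± 0.31, adjusted p = 1.96e-06). CUC2 and CUC3, boundary factors, rose by 4.35 and 3.0. KAN1, which opposes the class III factors, rose by 2.72. The corepressor TPL had 43.7, 45.1 and 51.5 FPKM in 32C, against 23.8, 22.9 and 21.3 FPKM in EC and a difference of 1.01 ± 0.23, and lost its call under each of the 4 other scalings (0.81 to 0.96). DRN, an AP2-type factor of the apical domain, was already present in the egg cell, with 74.2, 53.2 and 41.2 FPKM in 32C, against 56.8, 68.3 and 24.2 FPKM in EC (0.26 ± 0.37, adjusted p = 0.597, not called).

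**Figure D3:**
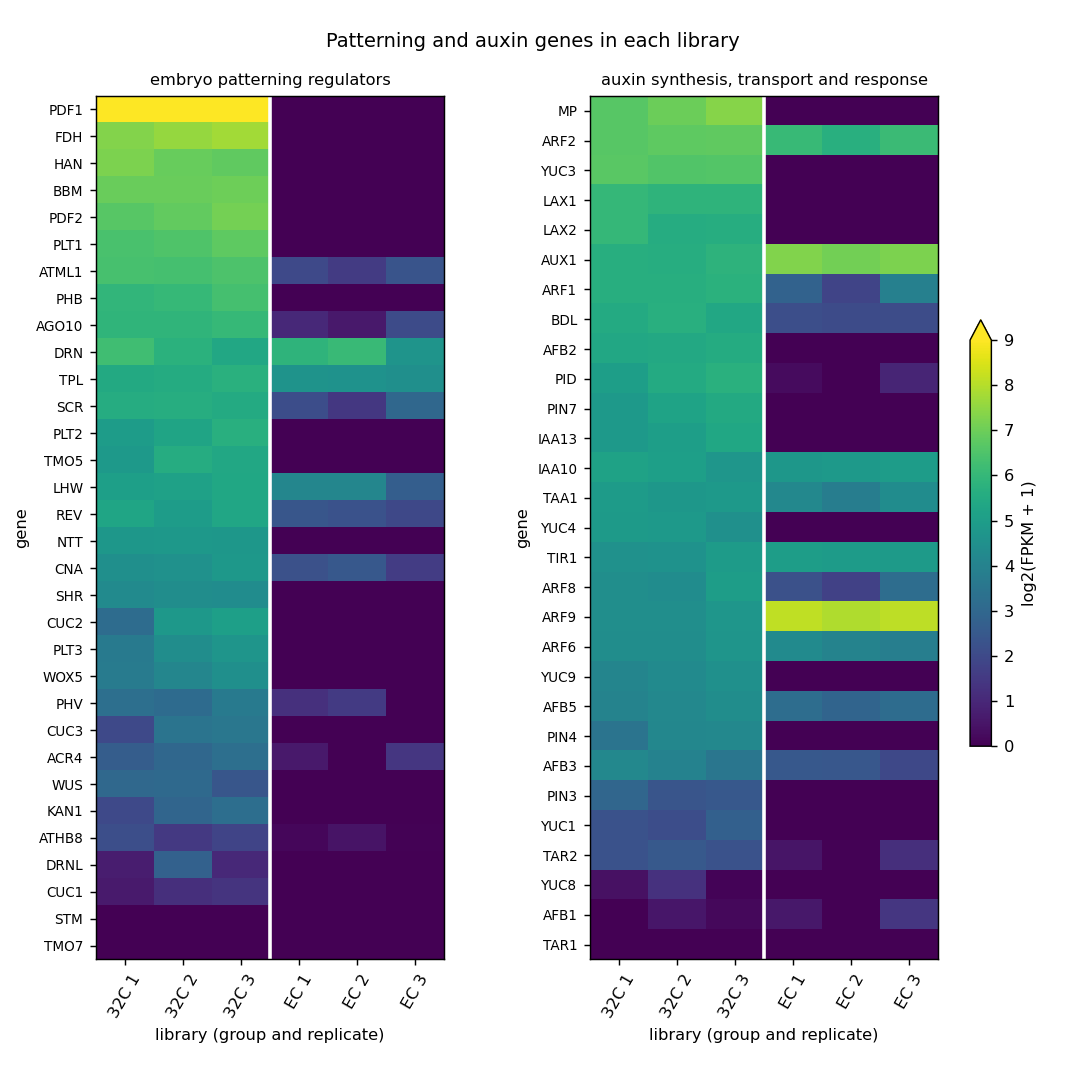
Levels of patterning regulators (left) and auxin genes (right) in the 3 libraries of 32C and the 3 of EC, as log2(FPKM + 1), with genes ordered by their mean in 32C. Most patterning regulators are dark (0) in all EC columns, while DRN, TPL, LHW, ARF2, AUX1, ARF9 and TIR1 are among the genes with a level in both groups.

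Most auxin genes were higher in the embryo. Of 30 auxin genes 27 were tested. Of these, 20 were higher (74.1%, against 27.8% of all tested genes), 2 lower (7.4%, against 15.5%) and 5 not called (median 2.8). For synthesis, the flavin monooxygenase gene YUC3, which makes auxin from indole-3-pyruvate, had 103, 92.2 and 95.4 FPKM in 32C, against 0 in each EC library (6.61 ± 0.62, adjusted p = 3.7e-07), YUC4, YUC9 and YUC1 rose by 4.76, 4.31 and 2.38, and TAA1, the enzyme of the preceding step, was present in both groups with 29.8, 26.1 and 28.5 FPKM in 32C, against 17.5, 13.0 and 19.8 FPKM in EC (0.73, not called). For transport, the efflux carriers PIN7, PIN4 and PIN3 rose by 5.17, 3.93 and 2.61, each listed at 0 in EC. PID, a kinase that directs PIN polarity, rose by 5.01. The influx carriers LAX1 and LAX2 had 56.4 to 62.8 FPKM and 46.0 to 62.2 FPKM in 32C, against 0 in each EC library (5.90 and 5.71). Their relative AUX1 (AT2G38120) went the other way, with 49.0, 48.2 and 55.3 FPKM in 32C, against 157, 136 and 148 FPKM in EC (-1.52 ± 0.40, adjusted p = 0.00503).

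Perception and response genes moved in both directions. The auxin receptor AFB2 had 40.6, 42.5 and 45.5 FPKM in 32C, against 0 in each EC library (5.45 ± 0.24, adjusted p = 1.3e-10), whereas its relative TIR1 had 22.3, 23.1 and 29.96 FPKM in 32C, against 31.6, 29.8 and 28.8 FPKM in EC and was not called (-0.26 ± 0.33, adjusted p = 0.54). MP (AT1G19850), the response factor MONOPTEROS that is needed for the embryonic root and vasculature, had 100.3, 126 and 164 FPKM in 32C, against 0, 0 and 0.02 FPKM in EC (7.0 ± 0.37, adjusted p = 7.35e-10). Its inhibitor BDL and the related IAA13 rose by 3.41 and 5.10, and BDL was listed at 3.21 to 3.44 FPKM in EC. ARF9 (AT4G23980), which acts in the suspensor, had 20.8, 20.7 and 25.2 FPKM in 32C, against 282, 245 and 271 FPKM in EC (-3.53 ± 0.58, adjusted p = 0.000126). ARF17, a target of a microRNA in other tissues, had 7.69, 4.96 and 4.13 FPKM in 32C, against 237, 194 and 259 FPKM in EC (-5.16 ± 0.24, adjusted p = 1.92e-10). Over the whole auxin response factor family 5 of 13 tested genes (21 annotated) were higher, 5 lower (38.5% each) and 3 not called. MP, ARF16, ARF1, ARF8 and ARF4 rose, and ARF17, ARF11, ARF9, ARF10 and ARF18 fell. ARF11 and ARF10 differed by -3.6 and -2.05. The hexamer TGTCTC, bound by response factors, stood in 2 of 30 promoters of the auxin list (6.7%) and in 13.6% of those of all tested genes.

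Among maturation regulators 5 of 9 were higher (55.6%, against 27.8% of all tested genes), none lower and 4 not called. The median was 1.01, against 0.23 over all tested genes. The 5 became 3 without 32C replicate 3. LEC1 (AT1G21970), a CCAAT-binding factor subunit that confers embryonic identity, was already abundant in the egg cell, with 453, 467 and 509.7 FPKM in 32C, against 241, 257 and 211 FPKM in EC (1.01 ± 0.23, adjusted p = 0.00178), a difference at the threshold that fell to 0.80 to 0.97 under the 4 other scalings and then was not called. Its paralogue L1L had 242, 204 and 169 FPKM in 32C, against 6.36, 3.20 and 20.5 FPKM in EC (4.54 ± 0.50, adjusted p = 2.21e-06). The B3 domain factors acting with LEC1 rose more: FUS3 had 139, 108 and 90.95 FPKM in 32C, against 0 in each EC library (6.81 ± 0.38, adjusted p = 1.74e-09), LEC2 had 52.4, 55.5 and 49.6 FPKM in 32C, against 1.49, 1.01 and 4.16 FPKM in EC (4.18 ± 0.29, adjusted p = 1.7e-08) and ABI3, listed at 0 in EC, rose by 4.0. The repressors of this programme PKL (-0.37), VAL1 (-0.33) and VAL2 (0.42) were not called, and ABI5 did not exceed 1.03 FPKM. Genes annotated with the words late embryogenesis abundant, oleosin or seed storage were higher in 28 of 77 tested and lower in 14 (227 annotated). These are 36.4% and 18.2%, against 27.8% and 15.5% of all tested genes. The set includes a superfamily annotated as both lipid-transfer and seed storage proteins. Its genes, AT4G30880 among them, are counted again among the lipid transfer proteins below. The oleosin AT3G18570 rose by 5.43, and the group 2 gene AT5G42860 fell, with 0 in each 32C library, against 286, 314 and 164 FPKM in EC (-7.94 ± 0.30, adjusted p = 3.14e-11).

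Genes of DNA replication were higher in the embryo, 17 of 22 (77.3%, against 27.8% of all tested genes), with none lower and 5 not called (median 3.02). The helicase subunits MCM2 to MCM7 all rose, by 3.5, 5.50, 3.09, 4.12, 4.57 and 3.80 in that order. MCM3 had 75.0, 59.4 and 55.5 FPKM in 32C, against 0.20, 0.05 and 1.24 FPKM in EC (5.50 ± 0.40, adjusted p = 2.91e-08). The sliding clamp gene PCNA1 (AT1G07370) had 330.3, 245 and 247 FPKM in 32C, against 15.03, 17.7 and 7.51 FPKM in EC (4.32 ± 0.32, adjusted p = 3.18e-08). PCNA2 rose by 3.22. Of the origin recognition complex ORC6, ORC1B and ORC3 rose by 5.48, 3.49 and 2.19, while ORC2 (-0.75), ORC4 (0.65), ORC5 (-0.47) and ORC1A (0.88) were not called, and the loading factor CDC6, listed at 0 in EC, rose by 3.85. CDT1A, which loads the helicase, rose by 2.23 whereas CDT1B had 27.4, 27.8 and 39.2 FPKM in 32C, against 58.1, 47.8 and 42.7 FPKM in EC and was not called (-0.65). In EC, ORC2, ORC4, ORC5 and CDT1B had 23.4 to 58.1 FPKM and no helicase subunit exceeded 7.34 FPKM. The E2F motifs TTTCCCGC, TTTGGCGC or TTTGGCGG, searched on both strands from 250 bases before to 50 after the gene start in the RefSeq TAIR10.1 genome, stood in 12 of the 22 promoters (54.5%), among them MCM2 to MCM6, ORC2 and ORC4, against 2.2% of tested genes and 1.9% of all 27444 coding promoters.

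The genes that govern entry into the cell cycle moved in both directions. Of 23 tested members (24 listed) 10 were higher, 6 lower and 7 not called (median 0.8). These are 43.5% higher and 26.1% lower, against 27.8% and 15.5% of all tested genes. Of the KRP inhibitors of cyclin-dependent kinases, KRP6 (AT3G19150) was high in the egg cell, with 1.68, 3.42 and 1.57 FPKM in 32C, against 406, 505 and 488 FPKM in EC (-7.22 ± 0.48, adjusted p = 9.34e-09). KRP7 had 1.04, 2.45 and 3.13 FPKM in 32C, against 63.5, 114 and 72.5 FPKM in EC (-4.73 ± 0.49, adjusted p = 1.09e-06). KRP1 fell by 2.16 and had 4.13 to 5.98 FPKM in EC. KRP3 and KRP5 were the embryo's members: KRP3 had 41.7, 38.2 and 34.8 FPKM in 32C, against 0 in each EC library (5.29 ± 0.48, adjusted p = 3.05e-07). KRP5 had 70.5, 59.97 and 67.9 FPKM in 32C, against 1.63, 1.16 and 1.91 FPKM in EC (4.72 ± 0.42, adjusted p = 2.31e-07). The libraries of the 2 groups did not overlap in any of these 5 genes, and the KRP genes AT2G32710 and KRP2 were not called.

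D-type cyclins, which couple growth signals to S phase, also moved in both directions. CYCD5;1 (AT4G37630) had 7.59, 11.9 and 10.4 FPKM in 32C, against 187, 168 and 189 FPKM in EC (-4.07 ± 0.25, adjusted p = 4.47e-09). CYCD3;3 had 142, 152 and 135 FPKM in 32C, against 353, 353 and 276 FPKM in EC (-1.18 ± 0.17, adjusted p = 2.51e-05). CYCD3;2 had 318, 329 and 337 FPKM in 32C, against 62.9, 53.4 and 59.8 FPKM in EC (2.46 ± 0.14, adjusted p = 1.49e-09). CYCD3;1 and CYCD2;1 rose by 4.91 and 3.72 and had 22.5 to 55.3 FPKM in 32C. CYCD6;1, a target of SHR and SCR in the root, rose by 3.37 and was listed at 0 in EC. The retinoblastoma gene RBR1 (2.13), the kinase CDKA;1 (1.3) and the factors E2FC (1.08, but 0.67 and not called after quantile normalization) and DPB (1.23) rose, E2FB fell (-1.25) and E2FA had 26.8, 21.9 and 23.99 FPKM in 32C, against 37.5, 41.4 and 35.9 FPKM in EC (-0.64, not called).

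Genes of mitosis and cytokinesis were higher in 24 of 28 cases (85.7%, against 27.8% of all tested genes), lower in none and not called in 4 (median 2.95). KN (AT1G08560), the syntaxin of the cell plate, had 71.3, 60.2 and 104 FPKM in 32C, against 0 in each EC library (6.27 ± 1.24, adjusted p = 0.00056). CYCB2;4 had 69.3, 61.9 and 89.6 FPKM in 32C, against 0 in each EC library (6.20 ± 1.0, adjusted p = 9.73e-05). CYCB1;1, CYCB1;3, CYCB1;4 and CYCA1;1 rose by 5.73, 5.90, 5.31 and 5.68. Their SEs reached 1.24 for KN and 1.16 for CYCB1;4, against the median SE of 0.335. These SEs rest on the spread within all 5 Col stages, and not on 32C and EC alone. The Aurora kinases AUR1, AUR2 and AUR3 rose by 3.84, 3.19 and 4.08. The mitotic kinases CDKB1;2, CDKB2;1 and CDKB2;2, listed at 6.64 to 47.9 FPKM in EC, rose by 1.34, 1.74 and 1.93, and CDKB1;1 reached 1.01, a call lost under the 4 other scalings (0.80 to 0.97). CDC20.1 (AT4G33270), an activator of the anaphase-promoting complex, had 198, 153 and 241 FPKM in 32C, against 244, 185 and 297 FPKM in EC (-0.29 ± 0.34, adjusted p = 0.498, not called), whereas CDC20.2 rose by 2.57. The microtubule-associated PLE (-0.79) and KEU, the partner of KN (-0.26), were not called and were present in each egg cell library. The core CAACGG of the mitotic promoter element stood in 13 of the 28 promoters (46.4%), among them KN and CYCB1;1 to CYCB1;4, against 7.3% of tested genes, and the E2F motifs in 0 of them.

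Histone genes separated by class. Canonical H3.1 genes, expressed in S phase, rose strongly while the replication-independent H3.3 genes were not called. Of 12 H3 genes 10 were tested. Of these, 6 were higher (60%, against 27.8% of all tested genes), none lower and 4 not called (median 5.25). AT1G09200, annotated as H3.1, had 302, 346 and 380.1 FPKM in 32C, against 2.28, 0.36 and 9.51 FPKM in EC (6.57 ± 0.55, adjusted p = 1.11e-07). AT5G10400 had 280.0, 362 and 380.4 FPKM in 32C, against 1.6, 1.72 and 5.72 FPKM in EC (6.55 ± 0.51, adjusted p = 5.25e-08). The other H3.1 loci AT5G10390, AT5G65360 and AT3G27360 rose by 6.41, 5.43 and 5.07. Of the H3.3 loci AT4G40030 had 216, 226 and 232 FPKM in 32C, against 199, 286 and 214 FPKM in EC (-0.04 ± 0.19, adjusted p = 0.902), AT4G40040 differed by 0.71 and AT5G10980 by 0.50. The centromeric histone HTR12 (AT1G01370) had 86.8, 67.5 and 85.8 FPKM in 32C, against 0, 0 and 0.42 FPKM in EC (6.16 ± 0.35, adjusted p = 1.71e-09), and the sperm histone gene MGH3 was listed at 0 in all 6. Near-identical H3.1 genes may share reads.

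The other core histones rose with exceptions. Of 8 H4 genes 7 were higher and the locus AT1G07660 was not called (-0.55); AT3G46320 and AT5G59970 rose by 5.67 and 5.41. Of 24 H2A and H2B genes 23 were tested. Of these, 16 were higher (69.6%, against 27.8% of all tested genes), 4 lower (17.4%, against 15.5%) and 3 not called (median 1.77). HTB2 (AT5G22880) had 418, 468 and 566 FPKM in 32C, against 0.64, 0 and 1.07 FPKM in EC (8.32 ± 0.34, adjusted p = 5.9e-11), and the H2A.W gene HTA6 had 187, 206 and 265 FPKM in 32C, against 0, 0.18 and 0.31 FPKM in EC (7.56 ± 0.29, adjusted p = 3.24e-11). HTA7, HTA11 and HTA13 rose by 6.08, 5.56 and 5.52. The 4 that fell are loci annotated as histone superfamily proteins with no further name. AT3G53650 had 50.4, 69.7 and 82.0 FPKM in 32C, against 203, 326 and 235 FPKM in EC (-1.90 ± 0.22, adjusted p = 3.6e-06). AT1G08170 had 0 in each 32C library, against 16.3, 24.99 and 11.7 FPKM in EC (-4.16 ± 0.59, adjusted p = 2.65e-05). AT3G09480 and AT5G02570 fell by 3.20 and 2.72. CAACGG stood in 16 of the 44 histone promoters (36.4%).

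**Figure D4:**
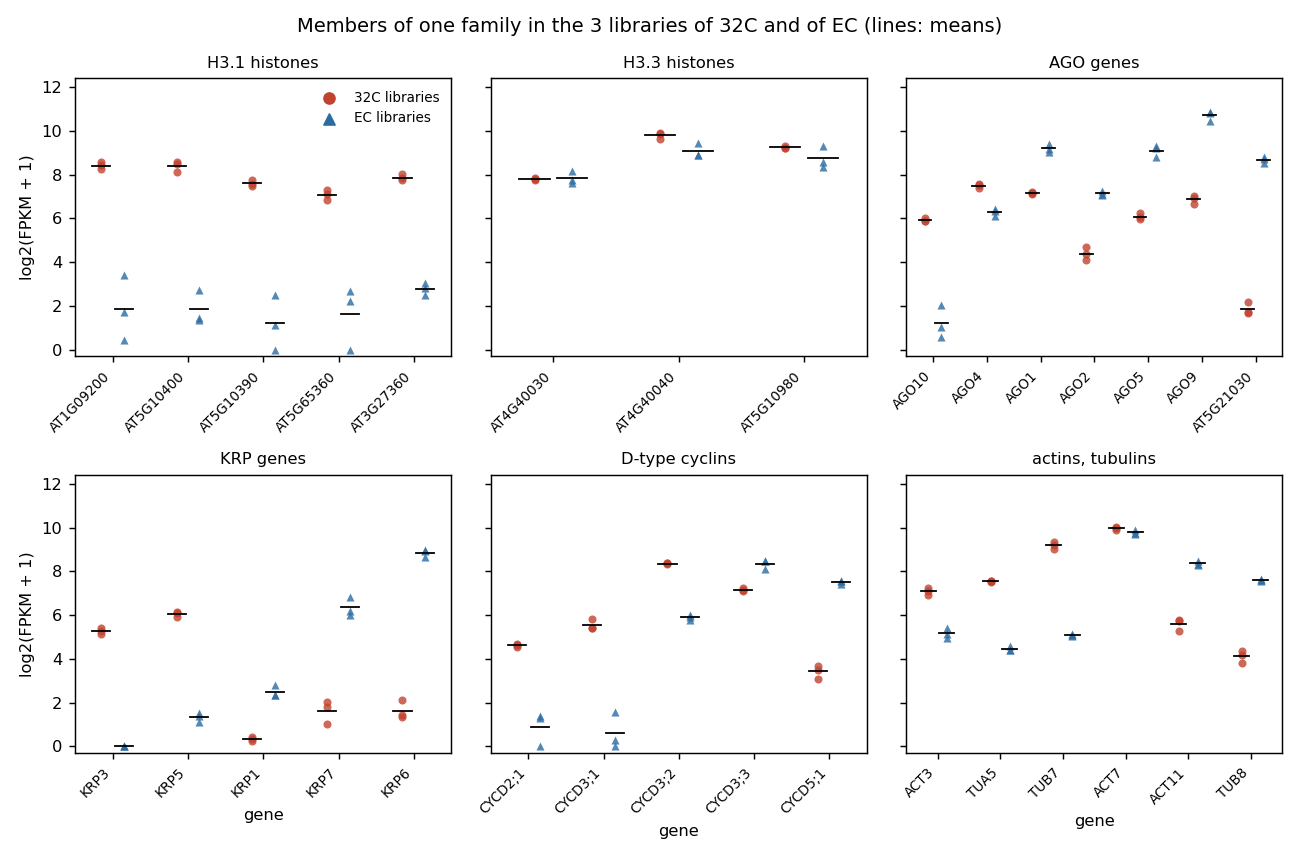
Levels, as log2(FPKM + 1), of members of 6 gene families in the 3 libraries of 32C (circles) and the 3 of EC (triangles), with lines at the means. H3.1 genes are higher in 32C while H3.3 genes lie close together, and the AGO, KRP, D-type cyclin, actin and tubulin panels each hold members that are higher in 32C and members that are higher in EC.

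Small RNA genes were more often lower than higher in the embryo: of 23, 22 were tested, with 4 higher, 9 lower and 9 not called (median -0.52). These are 18.2% higher and 40.9% lower, against 27.8% and 15.5% of all tested genes. Their summed share of FPKM was 0.102%, 0.0984% and 0.108% in 32C, against 0.528%, 0.370% and 0.523% in EC. AGO9 (AT5G21150), the ARGONAUTE of the ovule and gametes, had 99.7, 122 and 129 FPKM in 32C, against 1835, 1409 and 1878 FPKM in EC (-3.86 ± 0.14, adjusted p = 2.14e-11). AGO5, also known from reproductive tissue, had 65.1, 61.0 and 74.3 FPKM in 32C, against 592, 445 and 630.2 FPKM in EC (-3.03 ± 0.18, adjusted p = 3.45e-09). AT5G21030, annotated as an ARGONAUTE-family protein and similar to AGO9, had 3.52, 2.24 and 2.34 FPKM in 32C, against 453, 371 and 419 FPKM in EC (-6.82 ± 0.27, adjusted p = 5.77e-11). AGO1 (AT1G48410), the main effector of microRNAs, had 148, 144 and 137 FPKM in 32C, against 669, 526 and 576 FPKM in EC (-2.03 ± 0.21, adjusted p = 9.22e-07). AGO2 fell by 2.77. The embryo instead carried more of AGO10 (AT5G43810), which sequesters microRNAs in meristems, with 58.8, 57.7 and 64.5 FPKM in 32C, against 1.05, 0.52 and 3.15 FPKM in EC (4.71 ± 0.41, adjusted p = 2.01e-07), and of AGO4, of RNA-directed DNA methylation, with 181, 169 and 191 FPKM in 32C, against 85.1, 67.6 and 78.9 FPKM in EC (1.22 ± 0.15, adjusted p = 5.92e-06). Among the Dicer genes DCL1 (-2.34) and DCL4 (-2.22) fell, DCL3 rose (2.26) and DCL2 was not called (0.41). The microRNA processing factor HYL1 (-1.87) and the polymerase V subunit NRPE1 (-1.49) fell. AGO7 was called higher (1.03 ± 0.40, adjusted p = 0.043), although its libraries overlapped, with 4.79, 6.36 and 8.53 FPKM in 32C, against 2.19, 1.49 and 4.95 FPKM in EC, and the call was lost under 11 of 18 alternatives.

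DNA methylation genes split, 6 of 14 tested members (16 listed) higher, 3 lower and 5 not called (median 0.54). These are 42.9% higher and 21.4% lower, against 27.8% and 15.5% of all tested genes. The VIM proteins, which recruit the maintenance methyltransferase, were exchanged: VIM1 (AT1G57820) had 202, 182 and 194 FPKM in 32C, against 8.01, 7.94 and 2.06 FPKM in EC (4.95 ± 0.40, adjusted p = 7.64e-08), whereas VIM3 had 55.3, 44.8 and 61.6 FPKM in 32C, against 385, 354 and 345 FPKM in EC (-2.73 ± 0.15, adjusted p = 1.26e-09) and VIM2 fell by 1.57. MET1, the maintenance methyltransferase, had 28.2, 17.1 and 22.2 FPKM in 32C, against 4.96, 2.55 and 14.3 FPKM in EC (1.75 ± 0.46, adjusted p = 0.00488), with EC replicate 3 above both other EC libraries, and the chromatin remodeller DDM1 rose by 2.37. The de novo enzyme DRM1 fell (6.29, 9.97 and 7.71 FPKM in 32C, against 49.4, 40.8 and 47.2 FPKM in EC, -2.40 ± 0.34, adjusted p = 2.67e-05) and DRM2 (0.90) and CMT3 (0.19) were not called. The demethylases ROS1, DML2 and DML3 rose by 2.17, 1.46 and 2.70, and DME was not called (0.08). After quantile normalization DML2 was not called (0.66). In the Polycomb group 6 of 8 were tested: CLF (1.05, but 0.69 and not called after quantile normalization) and FIE (1.18, but 0.98 and not called under 2 of the 4 other scalings) rose, SWN fell (-1.02, but -0.72 and not called without EC replicate 3) and EMF2, VRN2 and MSI1 were not called, while MEA was listed at 0 in all 6 libraries and FIS2 did not exceed 0.02 FPKM.

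Cytoskeleton genes also changed member by member, with 8 of 21 tested (23 listed) higher, 2 lower and 11 not called (median 0.56). These are 38.1% higher and 9.5% lower, against 27.8% and 15.5% of all tested genes. TUB7 (AT2G29550) had 523, 589.5 and 640.2 FPKM in 32C, against 33.8, 32.9 and 32.6 FPKM in EC (4.1 ± 0.48, adjusted p = 3.84e-06), while TUB8 (AT5G23860) had 13.0, 17.0 and 19.8 FPKM in 32C, against 200.03, 193 and 190.4 FPKM in EC (-3.49 ± 0.17, adjusted p = 3.51e-10). Among actins ACT3 (1.93) and ACT2 (1.43) rose, ACT11 (AT3G12110), known from reproductive tissue, fell (53.6, 52.9 and 37.3 FPKM in 32C, against 361, 322 and 313 FPKM in EC, -2.78 ± 0.37, adjusted p = 1.64e-05) and ACT7, the most abundant actin in both groups, was not called (0.18). TUA5 rose by 3.1 and TUA3 by 2.02, but these 2 and the pairs TUA2 with TUA4 and TUB2 with TUB3 are near-identical and may share reads.

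Genes of cellulose synthesis were more often lower than higher. Of 12 tested genes of cellulose synthesis (13 listed) 2 were higher, 6 lower and 4 not called (median -1.18). These are 16.7% higher and 50% lower, against 27.8% and 15.5% of all tested genes. CESA9 had 2.06, 2.08 and 1.95 FPKM in 32C, against 71.7, 55.0 and 77.5 FPKM in EC (-4.50 ± 0.30, adjusted p = 8.47e-09). CESA10 had 0.15, 0.10 and 0 FPKM in 32C, against 30, 21.1 and 42.6 FPKM in EC (-4.84 ± 0.47, adjusted p = 6.45e-07). CESA2, CESA8, CESA7 and CESA1 fell by 3.08, 2.70, 2.12 and 1.38. CESA6 (AT5G64740), a subunit of the primary wall complex, was the 1 synthase gene that rose (12.5, 12.5 and 9.47 FPKM in 32C, against 0 in each EC library, 3.63 ± 0.44, adjusted p = 5.66e-06). COB, which orients cellulose deposition, rose by 1.54 (0.84 and not called without EC replicate 3). CESA3 (-0.99) and CESA5 (-0.41) were not called. Expansins, which loosen walls, were higher in 11 of 14 tested genes (31 annotated, 78.6%) and lower in 1 (7.1%). Members listed at 0 in EC could not be called lower. EXPA14 had 239, 267 and 346 FPKM in 32C, against 0 in each EC library (8.14 ± 1.06, adjusted p = 1.29e-05). EXPA15 and EXPA6 rose by 7.75 and 5.63, and EXP3 fell by 2.62. Leaving out any single 32C library reduced the count of higher expansins to 6. The filter was applied again in these fits, so genes reaching 1 FPKM in the 3 32C libraries alone left the test. Pectin lyase-like proteins had 10 of 40 tested genes higher (25%) and 14 lower (35%; 103 annotated), with QRT2 (AT3G07970) at 0 in each 32C library, against 353, 331 and 297 FPKM in EC (-8.35 ± 0.27, adjusted p = 6.84e-12). QRT1, which acts with QRT2 in separating pollen grains, fell by 6.09. Pectin methylesterases and their inhibitors had 15 of 47 tested genes higher (31.9%, near the 27.8% of all tested genes) and 13 lower (27.7%, against 15.5%; 129 annotated). With EC replicate 2 as the sole EC library 8 were lower. PME44 rose by 6.65 and AT3G17230 fell by 6.57.

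Genes of mRNA turnover and of ribosome production were called higher less often than all tested genes (13.3% and 14.3%, against 27.8%). The shares called lower were 20% and 7.1%, against 15.5%. Of 17 mRNA decay and poly(A)-binding genes 15 were tested, with 2 higher, 3 lower and 10 not called (median -0.15). The poly(A)-binding proteins were exchanged: PAB5 had 113, 86.8 and 97.3 FPKM in 32C, against 345, 298 and 271 FPKM in EC (-1.61 ± 0.16, adjusted p = 8.45e-07) and PAB7 18.9, 19.9 and 19.9 FPKM in 32C, against 126, 99.3 and 144 FPKM in EC (-2.58 ± 0.26, adjusted p = 7.4e-07), whereas PAB2 had 221, 187 and 225 FPKM in 32C, against 102, 93.8 and 99.7 FPKM in EC (1.09 ± 0.12, adjusted p = 1.92e-06). The call of PAB2 was lost under 3 of the 4 other scalings (0.88 to 0.99). DCP2, the decapping enzyme, fell by 1.22, and XRN3 (1.0) was called at the threshold, but not under the 4 other scalings (0.80 to 0.96). Of 14 ribosome biogenesis genes 2 were higher, 1 lower and 11 not called (median 0.28). Every 32C value was above every EC value in 7 of the 14, and below in 2, against 40.9% and 25.6% of all tested genes. The nucleolins differed: NUC2 had 41.9, 50.02 and 45.7 FPKM in 32C, against 179, 163 and 177 FPKM in EC (-1.89 ± 0.19, adjusted p = 8.43e-07). NUC1 had 749, 657 and 772 FPKM in 32C, against 413, 379 and 347 FPKM in EC (0.93 ± 0.15, not called for its size). FIB1, the fibrillarin of the nucleolus, rose by 1.36 and SWA2 by 1.07, the call of SWA2 being lost under 3 of the 4 other scalings (0.82 to 0.98).

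The set of cytosolic ribosomal protein genes was taken by the words of the annotation. Products naming chloroplasts, plastids, mitochondria or organelles were left out, so organellar members not named as such may be included. The set had 47 of 312 tested members higher, 13 lower and 252 not called (328 annotated, median 0.44). These are 15.1% higher and 4.2% lower, both below the 27.8% and 15.5% of all tested genes. A call needed a log2 difference of at least 1 in size. The median of 0.44 was above the 0.23 of all tested genes. Every 32C value was above every EC value in 155 of the 312, and below in 34, against 40.9% and 25.6% of all tested genes. The ribosomal protein genes summed to 18.1%, 18.1% and 18.4% of FPKM in 32C, against 12.5%, 15.3% and 12.2% in EC. The count of higher members was 27 after quantile normalization, 26 without the 10 highest genes in the sum and 26 with EC replicate 2 as the sole EC library, with 24 lower in the last case. Single paralogues belonged to the egg cell: AT5G09500, an S19 protein, had 1.01, 0.65 and 1.52 FPKM in 32C, against 664, 991 and 625 FPKM in EC (-8.52 ± 0.22, adjusted p = 9.6e-13). AT5G40040, an acidic 60S protein, had 7.53, 4.85 and 3.93 FPKM in 32C, against 363, 677 and 290.2 FPKM in EC (-6.05 ± 0.32, adjusted p = 7.39e-10). The telo box AAACCCTA stood in 37.5% of the 328 ribosomal protein promoters and in 10 of the 14 biogenesis promoters (71.4%), against 6.5% of tested genes. The site II elements TGGGCC or TGGGCT stood in 64.6% of the ribosomal protein promoters, against 27.7% of tested genes, and in 21.8% of the genes called higher, 23.6% of those called lower and 31.6% of those not called.

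Photosynthetic genes were listed at low levels, at most 28.9 FPKM in any of the 6 libraries. Of 31 genes 25 were tested, with 11 higher, 1 lower and 13 not called (median 1.27). These are 44% higher and 4% lower, against 27.8% and 15.5% of all tested genes. LHCA1, an antenna protein of photosystem I, had 27.98, 27.97 and 22.9 FPKM in 32C, against 2.38, 2.63 and 2.37 FPKM in EC (2.97 ± 0.34, adjusted p = 2.77e-06). The oxygen-evolving complex gene PSBO1 had 9.12, 10.5 and 15.7 FPKM in 32C, against 0.15, 0 and 1.35 FPKM in EC (3.16 ± 0.39, adjusted p = 6.42e-06). LHCA4, LHCB6 and the Rubisco activase gene RCA rose by 2.37, 2.16 and 2.82, and the magnesium chelatase genes CHLD, CHLH and CHLI1 by 2.05, 1.77 and 1.4, of which CHLH was not called after quantile normalization (0.76). The sum over the list was 172 to 213 FPKM in 32C, against 50.5 to 71.7 FPKM in EC. The regulators GLK1 and GLK2 were listed at 0 in all 6 libraries. LHCB1.1 had 0, 0.21 and 0.05 FPKM in 32C, against 7.09, 8.87 and 6.77 FPKM in EC (-2.98 ± 0.59, adjusted p = 0.000605).

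F-box proteins, which choose targets for ubiquitination, were more often lower than higher in the embryo. Of 293 tested genes (653 annotated) 31 were higher, 111 lower and 151 not called, that is 10.6% higher and 37.9% lower, against 27.8% and 15.5% of all tested genes, with a median of -0.74. AT1G80470 had 0.40, 0.11 and 0 FPKM in 32C, against 278, 254 and 189.6 FPKM in EC (-7.68 ± 0.38, adjusted p = 3.97e-10). FOA1 (AT3G17320) had 0.85, 0.10 and 0 FPKM in 32C, against 145, 137 and 93.3 FPKM in EC (-6.61 ± 0.31, adjusted p = 2.66e-10). Few members were abundant in the embryo; AT4G33160 had 53.8, 77.7 and 80.6 FPKM in 32C, against 0 in each EC library (6.14 ± 0.39, adjusted p = 5.68e-09).

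Of 102 tested cytochrome P450 genes (248 annotated) 30 were higher, 16 lower and 56 not called, and the shares of 29.4% and 15.7% are near those of all tested genes (27.8% and 15.5%). After quantile normalization 29 were lower, and with EC replicate 2 as the sole EC library 10. CYP78A9 (AT3G61880) had 0 in each 32C library, against 539, 463 and 569 FPKM in EC (-9.03 ± 0.26, adjusted p = 2.69e-12), and its relative CYP78A6 fell by 5.53 and had 42 to 47.5 FPKM in EC. CYP78A5 (AT1G13710), known as KLUH for its role in organ growth, had 307, 316 and 401 FPKM in 32C, against 0 in each EC library (8.41 ± 0.89, adjusted p = 1.48e-06). The brassinosteroid enzyme gene DWF4 rose by 6.54 and CYP77A4, an enzyme of cutin precursors, by 6.49.

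Counts in other transcription factor families are to be read against the 27.8% higher and 15.5% lower of all tested genes. WRKY genes were higher in 18 of 40 tested genes (72 annotated, 45%) and lower in 4 (10%); WRKY17 (AT2G24570) had 103, 128 and 103 FPKM in 32C, against 0 in each EC library (6.8 ± 0.32, adjusted p = 2.61e-10). WRKY11 and WRKY21 rose by 6.47 and 6.27. MYB genes were higher in 13 (34.2%) and lower in 6 (15.8%) of 38 tested. The 13 became 8 with each 32C library left out in turn, where genes reaching 1 FPKM in 32C alone left the test. An example was MYB62 at 331, 322 and 339 FPKM in 32C, against 0 in each EC library (8.37 ± 0.23, adjusted p = 1.7e-12). NAC genes were higher in 9 (25%) and lower in 7 (19.4%) of 36 (80 annotated), near the shares of all tested genes: NAC102 rose (234, 307 and 373 FPKM in 32C, against 16.2, 3.57 and 50.9 FPKM in EC, 4.23 ± 0.59, adjusted p = 2.39e-05). NAC023 fell (0 in each 32C library, against 162, 149.8 and 154 FPKM in EC, -7.29 ± 0.30, adjusted p = 6.77e-11). MADS box genes were higher in 9 (24.3%) and lower in 5 (13.5%) of 37 (104 annotated), also near those shares. The 9 became 5 without 32C replicate 2, where genes reaching 1 FPKM in 32C alone again left the test. AGL15, which promotes embryogenesis, had 94.5, 105 and 112 FPKM in 32C, against 6.36, 3.86 and 13.99 FPKM in EC (3.69 ± 0.41, adjusted p = 2.48e-06), whereas its relative AGL18 had 4.0, 5.36 and 4.17 FPKM in 32C, against 92.4, 99.6 and 51.9 FPKM in EC (-3.85 ± 0.24, adjusted p = 5.66e-09). The flowering repressor FLC had 24.2, 24.9 and 17.4 FPKM in 32C, against 1.12, 0 and 3.32 FPKM in EC (3.45 ± 0.55, adjusted p = 9.21e-05). Of 326 annotated microRNA primary transcripts 7 were tested, 5 of them higher and none lower, and MIR824 had 35.7, 24.6 and 30.2 FPKM in 32C, against 0.28, 0.42 and 0.86 FPKM in EC (4.36 ± 0.56, adjusted p = 1.15e-05).

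Lipid transfer proteins were higher in 14 (31.8%) and lower in 8 (18.2%) of 44 tested genes (139 annotated), near the 27.8% and 15.5% of all tested genes, and the 8 became 5 without 32C replicate 2. AT4G30880, listed at 0 in EC, rose by 8.82, and AT5G09370 had 3.78, 3.67 and 2.77 FPKM in 32C, against 325, 565 and 331 FPKM in EC (-6.49 ± 0.32, adjusted p = 4.58e-10). Cysteine-rich and defensin-like peptides were higher in 18 (45%) and lower in 8 (20%) of 40 tested (224 annotated, 141 of them listed at 0 in all 6). The 18 became 10 to 11 when 1 32C library was left out, and the 8 became 5 without EC replicate 1. In such fits genes reaching 1 FPKM only in the group that lost a library left the test. LCR48 (AT3G48231) had 1306, 1367 and 1634 FPKM in 32C, against 1.47, 8.54 and 1.15 FPKM in EC (8.59 ± 0.64, adjusted p = 3.61e-08). The 8 that were lower include LCR47, with 0, 0 and 0.45 FPKM in 32C, against 7.62, 0.99 and 36.8 FPKM in EC, whose EC values follow the synergid markers given next.

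Markers of neighbouring cells were measured beside these results. The 6 synergid markers, among them MYB98 and 4 LURE1 attractants, summed to 0, 0.22 and 0 FPKM in the 32C libraries, against 109, 8.07 and 529 FPKM in EC replicates 1, 2 and 3, which is 0.0135%, 0.000888% and 0.0651% of EC FPKM. MYB98 had 0 in each 32C library, against 3.29, 0 and 10.7 FPKM in EC. Of 9 central cell and endosperm markers AGL80 was higher (6.52, 5.75 and 4.93 FPKM in 32C, against 0 in each EC library, 2.74 ± 0.71, adjusted p = 0.00426), MEA and ZOU were listed at 0 in all 6, and the others did not exceed 2.38 FPKM. Of 11 seed coat markers 7 were at 0 in all 6 and MUM4, which also makes cell wall sugars elsewhere, had 20.3, 14.9 and 15.1 FPKM in 32C, against 250.4, 175 and 323 FPKM in EC (-3.79 ± 0.30, adjusted p = 6.79e-08). Of 8 sperm and pollen markers 4 were at 0 in all 6; GEX1, expressed in both gametes, had 0.08, 0.15 and 0.10 FPKM in 32C, against 179, 159.9 and 149 FPKM in EC (-7.2 ± 0.36, adjusted p = 4.54e-10). GEX3 and HAP2 fell by 2.96 and 1.96. With EC replicate 2, the library with the least synergid signal, as the sole EC library, 4732 genes were higher and 2273 lower, a fit added after the data were seen in which the lone library is assumed to vary like the other groups. The part of synergid RNA in the calls made with all 3 EC libraries was not otherwise tested.

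Heat shock proteins varied within the 32C libraries. The family summed to 2.62%, 1.90% and 1.18% of FPKM in 32C replicates 1, 2 and 3, against 1.1%, 0.886% and 0.952% in EC, and 42 of 119 tested genes (145 annotated) were higher and 11 lower (35.3% and 9.2%, against 27.8% and 15.5% of all tested genes). After quantile normalization 19 were lower, and with EC replicate 2 as the sole EC library 6. HSP21 (AT4G27670), a plastid small heat shock protein, had 332, 168 and 32.5 FPKM in 32C, against 0 in each EC library (6.95 ± 0.99, adjusted p = 2.97e-05). HSP17.6A (AT5G12030), a cytosolic one, had 1581, 963 and 303 FPKM in 32C, against 18.0, 0 and 83.4 FPKM in EC (6.05 ± 1.14, adjusted p = 0.000383). The lowest 32C value was in replicate 3 for both, and the part that this difference among the 32C libraries had in the calls was not tested.

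**Figure D5:**
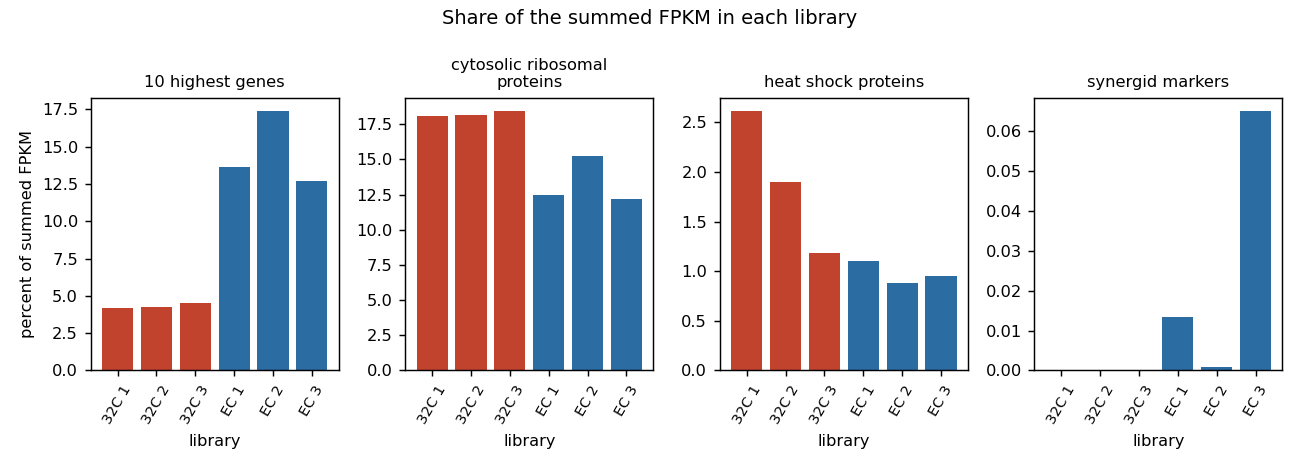
Percent of the summed FPKM taken in each library by its 10 highest genes, by cytosolic ribosomal proteins, by heat shock proteins and by synergid markers, the 3 bars of 32C to the left of the 3 of EC. The 10 highest genes take more in every EC library, heat shock proteins differ among the 32C libraries from 1.18% to 2.62%, and synergid markers reach 0.0651% in EC replicate 3.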

How the data were processed

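Poly(A) RNA of egg cells and 32-cell embryos was amplified with SMART-Seq v4 before sequencing, per the labels' protocols. The authors deposited gene-level FPKM values with 2 decimals, made with TopHat2 and RSEM on TAIR10, per the submitters' processing notes. Versions, library totals and the strand used in counting are not given in the sources used here, so antisense and near-identical genes may share reads. Amplification of little RNA can widen the spread of weakly expressed genes.

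Loci with no entry in a deposited file, which lists no value below 0.01 FPKM, were set to 0. The 15 Col libraries entered 1 fit in limma 3.58.1 under R 4.3.3, with trended, robust moderation of log2(FPKM + 1). Genes had to reach 1 FPKM in 3 or more of them, and the contrast was 32C minus EC. On simulated data with 17251 genes the fit called 35 of 50 genes changed by 1.5, 45 of 50 by 2 and 49 of 50 by 3 log2 units, with 6 calls among 17051 unchanged genes. The changed genes were drawn from those with a mean log2(FPKM + 1) above 3, with normal noise. These rates therefore do not cover weakly expressed genes or genes listed at 0 in a whole group.

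Genes named are the 12 largest rises and falls, the 10 highest genes of each group, and members of lists and annotated families, largest changes first. Members of lists outside the largest changes were named by their role after their values were seen. 1 gene of the auxin list is counted but not reported here by itself. The members and lists were chosen with earlier results of these data known. Names, families and promoters (250 bases before to 50 after the gene start, both strands searched) came from RefSeq TAIR10.1. A motif match is a description and no site. Other scalings, pseudocounts of 0.1 and 0.5, filters, the replicate block and each left-out replicate were tried. The filter was applied again in each fit, so 18079 to 18099 genes were tested with 1 32C library left out, against 18481 in the main fit. Python 3.11.15, numpy 2.4.6, pandas 2.3.3 and scipy 1.17.1 were used.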

Additional observations from a re-analysis of the deposited data

How the results depend on the processing

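Of the 309 genes followed by name, 257 kept their direction and their side of the threshold under each alternative that gave a value (18 at most), 30 lost a call and 10 gained one under at least 1 of them, and 13 changed sign. None of those 13 was called with the deposited scaling. Under quantile normalization 4297 genes were lower in 32C, against 2861 as deposited, and the differences became -0.03 for HDG11, -0.30 for DCL2, -0.56 for DME, -0.10 for ACT7 and -0.03 for EMF2. Equal sums of all genes but the 10 highest gave -0.02 for CMT3, -0.06 for HDG11, -0.01 for AAC1, -0.11 for DME, -0.03 for ACT7 and -0.09 for EMF2, and median of ratios scaling gave 0.0 for DME. With EC replicate 2 as the only EC library, an alternative chosen after seeing the data, they were -0.32 for DRN, -0.07 for HDG11, -0.13 for KRP2, 0.19 for VRN2, 0.07 for CDC20.1, -0.01 for DME and -0.08 for AT5G10980. The cause was not tested. Leaving out 1 replicate gave -0.19 to 0.54 for DRN, -0.14 to 0.32 for HDG11, -0.11 to 0.09 for VRN2, -0.14 to 0.12 for AT4G40030 and -0.09 to 0.27 for DME. It gave 4424 to 5221 genes higher and 2588 to 2981 lower in 32C. Genes reaching 1 FPKM only in the group that lost a library were no longer tested there.

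Genes on in EC and not in 32C numbered 224 with limits of under 0.5 and at least 10 FPKM and 187 with the other stage listed at 0, against 398, since both limits are stricter by construction. Of 84 counts of called members of lists and families, 56 stayed within 1.5 times of the count with the deposited scaling under all 18 alternatives and 28 moved further under at least 1. Same-numbered libraries were not treated as pairs. Their deviations from the group means correlated at -0.0208, 0.0018 and -0.0253. Such values see only a shift shared by many genes, so they cannot show whether same-numbered libraries were prepared together. The labels do not say. With the replicate block 5152 genes were higher and 2867 lower in 32C. Depth could be read for 5 of the 6 libraries, where 1 FPKM stood for at least 15.1 fragments per kb, so that differences among genes near 1 FPKM are the least certain.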

Other observations

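The families in this part were chosen after their values had been seen, so their counts describe these libraries and support nothing further. They stand beside 27.8% higher and 15.5% lower over all tested genes. Some of these families recount genes given above. HSP20-like chaperones are part of the heat shock family, and F-box proteins with RNI and FBD domains part of the F-box family. Several WOX genes are counted again among the homeobox genes. Of 12 tested 3-ketoacyl-CoA synthases (21 annotated), which elongate fatty acids for wax and other surface lipids, 10 were higher, 1 lower and 1 not called. KCS20 had 93.9, 121 and 126 FPKM in 32C, against 0 in each EC library (6.83 ± 0.25, adjusted p = 2.14e-11), and KCS6, known for wax synthesis, rose by 3.35. The wax regulators MYB96 and MYB94 were high in the embryo. MYB96 had 92.9, 135 and 131 FPKM in 32C, against 0 in each EC library (6.89 ± 0.64, adjusted p = 3.35e-07), and MYB94 had 109, 93.0 and 114 FPKM in 32C, against 0 in each EC library (6.73 ± 0.27, adjusted p = 5.01e-11). Both were listed at 0 in the egg cell, as were the lipid transfer gene LTPG1, with 423, 642 and 558 FPKM in 32C, PDF1 and PDF2.

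Of 15 tested xyloglucan endotransglucosylases (29 annotated), which cut and rejoin wall polymers, 11 were higher and 2 lower, with XTH9 at 234, 312 and 259 FPKM in 32C, against 0 in each EC library (8.06 ± 0.45, adjusted p = 1.45e-09) and TCH4 rising by 7.15. Of 30 tested arabinogalactan proteins (43 annotated), which sit at the cell surface, 17 were higher and 4 lower, and AGP9 and AGP31 rose by 7.85 and 7.81 and were listed at 0 in EC. Among transcription factors 28 of 44 tested homeobox genes (82 annotated) were higher and 3 lower; HB4 and HAT3, of the class that responds to shade and auxin, rose by 6.47 and 6.37, whereas ATHB13 had 0 in each 32C library, against 45.4, 48.8 and 46.8 FPKM in EC (-5.59 ± 0.27, adjusted p = 3.7e-10). Genes annotated as GATA factors were higher in 17 of 23 tested genes (32 annotated) and lower in none, with GATA17 rising by 6.01. That annotation also covers WLIM1, WLIM2a, WLIM2b and PLIM2b, which carry LIM names and were counted as higher. The libraries of GATA16 and GATA7, also called higher, overlapped between the groups. F-box proteins with RNI and FBD domains were higher in 0 and lower in 15 of 26 tested genes (42 annotated).

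ECA1 gametogenesis related proteins were lower in 17 of 36 tested genes (74 annotated) and higher in 1. Their sum was 11.1, 7.42 and 6.48 FPKM in 32C replicates 1, 2 and 3, against 1409, 177 and 6475 FPKM in EC replicates 1, 2 and 3. The EC values had the same order as the synergid markers, and AT5G36470 had 0 in each 32C library, against 439, 2.06 and 2061 FPKM in EC (-7.13 ± 1.66, adjusted p = 0.00209). AT5G36310 and AT5G36340 had identical values in all 6 libraries. HSP20-like chaperones were higher in 16 of 25 tested genes (34 annotated) and lower in 2, with a summed share of 0.720%, 0.480% and 0.236% in 32C replicates 1, 2 and 3, against 0.0806%, 0.0760% and 0.114% in EC.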
